A study of Mus musculus with 6 samples.

Results

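The chemokines and chemokine receptors are described here as measured in cells of the prepubertal mouse testis, sorted by Thy1. A gene belongs to the group if its symbol names a CC or CXC chemokine or receptor, or is Cx3cl1, Cx3cr1, Xcr1, Ackr1, Ackr2, Ackr3 or a Ccrl gene. Pf4, Ppbp and Xcl1 were left out of the group. It holds 53 genes of the 18193 that had a probe set of their own on the arrays, and the probe set with the highest mean was used for each. Of these members 32 encode ligands and 21 encode receptors.

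The study separated testis cells with magnetic beads by Thy1, a glycoprotein of the cell surface, and asked which genes are higher in the Thy1-positive fraction, which per the series' design text held more spermatogonial stem cells in transplantation assays. RNA of 3 Thy1-negative samples (N1, N2 and N3) and 3 Thy1-positive samples (P1, P2 and P3) was hybridised to 1 Affymetrix array per sample. Within each fraction the samples came from separate donor preparations. Whether a Thy1-negative and a Thy1-positive sample of the same number came from 1 preparation is not stated. The labels name no treatment. Strain and exact age are not given in the sources used here. Both fractions are mixtures of cells, so a lower level cannot be told apart between fewer cells of a type and less RNA per cell.

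Chemokines are small secreted proteins that guide moving cells along a gradient. They are grouped by the spacing of their conserved cysteines into CC, CXC and CX3C ligands, and most act on receptors of matching name, which couple to inhibitory G proteins. Atypical receptors bind chemokines without this coupling and take them up. In the testis CXCL12 and its receptor CXCR4 are known for guiding germ cells and holding stem cells in place, while CX3CR1 and CCR2 are best known on macrophages and monocytes.

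Each value below is log2(intensity + 1) of the deposited intensities, and each difference is Thy1-positive minus Thy1-negative on that scale, with n = 3 arrays per fraction. A gene passed at an adjusted p below 0.05 in limma, adjusted over all 18193 genes with the Benjamini-Hochberg method. The arrays' medians lay between 4.06 and 4.21, and a member below them in both fractions is called dim. Low signal means a mean below the 25th percentile, which lay between 2.67 and 2.68. The values of 3 arrays per fraction limit the precision throughout.

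Thy1 itself, the marker used to sort, measured 2.35 to 2.74 in Thy1-negative and 6.05 to 6.52 in Thy1-positive cells. Among markers of undifferentiated spermatogonia, 11 of 13 measured passed as higher, while 9 of 10 Sertoli cell genes passed as lower. Leukocyte markers were higher in the same Thy1-positive arrays. Of 17 macrophage genes 16 passed as higher, and their summed intensity was 746 to 1728 on the Thy1-negative and 19059 to 27334 on the Thy1-positive arrays, with Ptprc, Cd68, Cd14, C1qa and C1qc at low signal in Thy1-negative cells. Of 9 T lymphocyte genes 4 passed as higher (summed intensity 62.4 to 76.5 against 487 to 541), of 7 cytotoxic lymphocyte genes 5 (47.4 to 51.3 against 589 to 656) and of 7 mast cell genes 5 (130.2 to 247 against 1132 to 1563). The 4 T lymphocyte genes were Cd3d, Cd3g, Lat and Thy1 itself, whose rise follows from the sort and is part of the sum. Eomes passed as higher and is counted among both the cytotoxic lymphocyte and the spermatogonia genes. Of 7 neutrophil genes 1 passed (614 to 1721 against 1229 to 5601), which was Mpo with a difference of 0.07, and Elane and Mpo were at low signal in both fractions. Of 5 B lymphocyte genes 1 passed as higher, of 5 dendritic cell genes 1 as higher and 1 as lower, and of 8 endothelial genes 1 in each direction. The part of these cells in the chemokine results was not tested.

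As a group, 15 of the 53 members were higher in Thy1-positive cells (28.3%, where 18.5% of all genes were) and 3 were lower (5.66%, against 14.4% of all genes). Taken in either direction, 34.0% of the members passed, near the 33.0% of all genes. Of the 15 higher members, 12 lay below the array median in Thy1-negative cells. With each array centred on its median, 43 members passed as higher and 3 as lower, but so did 10436 and 2659 of all 18193 genes, and 26 of the 28 members gained were dim in both fractions. The higher members included receptors of macrophages and monocytes (Cx3cr1, Ccr1 and Ccr2), the lymphocyte receptor Cxcr6, the CXCL12 receptor Cxcr4, and a run of inflammatory ligands led by Ccl2, Ccl3 and Cxcl2. Those that were lower were the ligands Cx3cl1 and Ccl27a and the atypical receptor Ackr3. The median difference was 0.02 over the members and 0.01 over all genes. At a difference of 2 or more, 12 members passed as higher (22.6%), against 2.76% of all genes. This count depends on the pseudocount of 1. With a pseudocount of 16, Ccl6, Ccl7, Ccl9, Ccl12 and Ccr1 passed at 1.53, 1.57, 1.23, 1.84 and 1.97. The rest of the 12 ranged from 2.20 (Cxcr4) to 3.86 (Cx3cr1), and the share of all genes was not recounted. With the mean of all probe sets, Ccl6, Ccl9, Ccr1 and Ccr2 differed by 1.28, 1.42, 1.68 and 1.86, and the rest by 2.79 (Ccl7) or more. The values of the fractions did not overlap for 27 members (50.9%), close to the 51.4% of all genes, so the absence of overlap is no feature of the group. Members above the median of their array numbered 10, 8 and 8 on N1, N2 and N3 and 22, 22 and 23 on P1, P2 and P3.

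**Figure D1:**
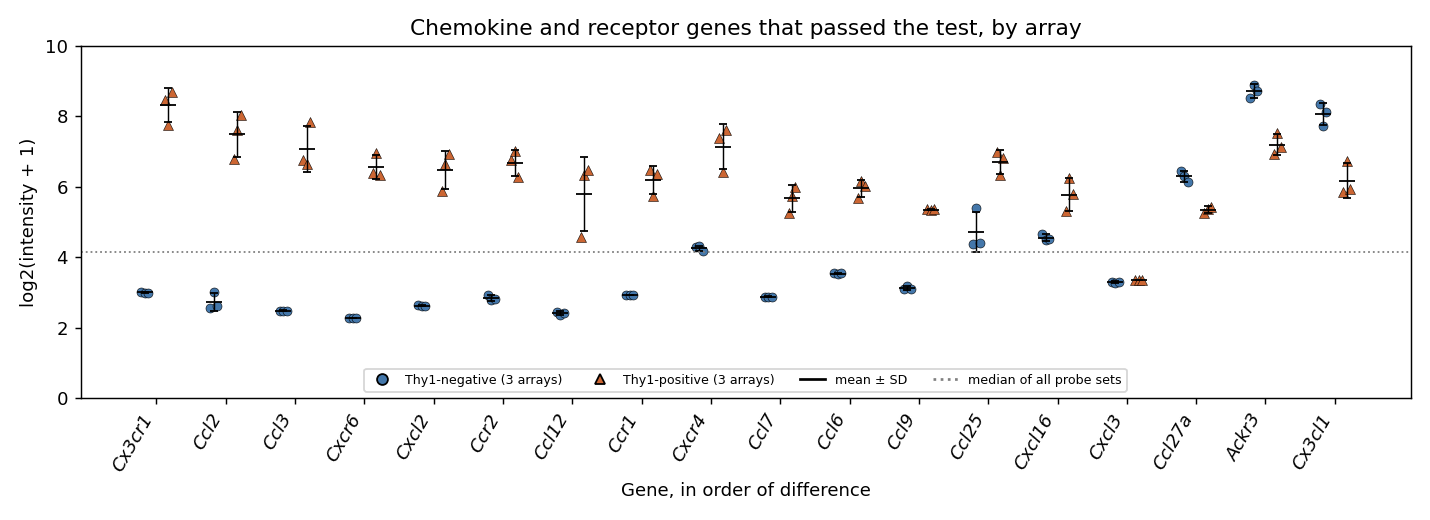
Values of the 18 members that passed, as log2(intensity + 1) on each of the 6 arrays (circles Thy1-negative, triangles Thy1-positive), with the mean and SD of 3 arrays and the median of all probe sets as a dotted line. From Cx3cr1 to Cxcl3 the Thy1-positive arrays sit higher, and for Ccl27a, Ackr3 and Cx3cl1 they sit lower, although the difference of Cxcl3 is 0.07.

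Promoters of 3 members from each of 2 groups of neighbouring genes are shown, the first because the values of these neighbours differed and the second because all 3 passed as higher. Cxcl3, Cxcl1 and Cxcl2 lie close together on chromosome 5 and encode ligands of the neutrophil receptor CXCR2, and Ccl9, Ccl6 and Ccl3 lie side by side on chromosome 11 and encode ligands of CCR1. The sequences are the 250 bases before the gene start in RefSeq (GRCm38.p6), 5′ to 3′ on the strand of the gene. Capitals mark matches on either strand to GGGAATTTCCC, the longest run that the windows of Cxcl1, Cxcl2 and Cxcl3 share, which has the form of an NF-kB element, to GAGGAA (a core bound by PU.1, a factor of myeloid cells) and to TATAAA (the TATA box). The positions are chr5:90785851-90786100, chr5:90890995-90891244 and chr5:90903649-90903898 on the plus strand, and chr11:83578637-83578886, chr11:83593088-83593337 and chr11:83649379-83649628 on the minus strand.
Cxcl3: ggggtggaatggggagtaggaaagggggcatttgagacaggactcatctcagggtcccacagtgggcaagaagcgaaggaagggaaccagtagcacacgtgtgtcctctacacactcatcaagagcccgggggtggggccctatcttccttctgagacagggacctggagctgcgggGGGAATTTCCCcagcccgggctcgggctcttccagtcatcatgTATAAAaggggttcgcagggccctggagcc
Cxcl1: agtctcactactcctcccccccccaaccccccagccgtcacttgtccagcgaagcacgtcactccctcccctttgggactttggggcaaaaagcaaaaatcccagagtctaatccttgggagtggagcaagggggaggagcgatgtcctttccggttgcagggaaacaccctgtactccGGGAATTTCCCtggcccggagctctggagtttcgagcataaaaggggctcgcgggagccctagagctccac
Cxcl2: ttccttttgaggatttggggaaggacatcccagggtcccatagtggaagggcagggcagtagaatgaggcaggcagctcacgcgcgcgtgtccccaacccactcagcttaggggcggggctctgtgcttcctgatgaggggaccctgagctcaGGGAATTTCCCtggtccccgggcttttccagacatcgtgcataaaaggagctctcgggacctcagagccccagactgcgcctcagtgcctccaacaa
Ccl9: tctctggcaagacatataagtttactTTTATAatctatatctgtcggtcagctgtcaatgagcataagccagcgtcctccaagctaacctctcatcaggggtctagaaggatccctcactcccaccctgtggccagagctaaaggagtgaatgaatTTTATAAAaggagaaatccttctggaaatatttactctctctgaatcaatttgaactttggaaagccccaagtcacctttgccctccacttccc
Ccl6: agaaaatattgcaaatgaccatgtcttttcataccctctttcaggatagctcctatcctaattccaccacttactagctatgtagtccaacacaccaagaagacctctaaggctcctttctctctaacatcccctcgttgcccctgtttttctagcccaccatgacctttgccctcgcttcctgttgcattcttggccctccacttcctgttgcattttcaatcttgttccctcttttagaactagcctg
Ccl3: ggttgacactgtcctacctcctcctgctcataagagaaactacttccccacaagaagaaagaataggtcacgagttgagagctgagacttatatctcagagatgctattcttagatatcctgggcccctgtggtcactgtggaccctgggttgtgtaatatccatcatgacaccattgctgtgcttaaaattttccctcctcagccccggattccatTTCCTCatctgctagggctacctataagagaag

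GGGAATTTCCC was found in 14 of 32851 promoter windows of this length in the table (0.0426%), and among the 40 members that have one in the 3 it was taken from. Its last base lay 63, 61 and 87 bases before the start of Cxcl3, Cxcl1 and Cxcl2. GAGGAA was found in 23.3% of all windows and in 12 of 40 members, and TATAAA in 12.4% and in 13. Of the windows shown, Ccl3 held GAGGAA on the other strand, Cxcl3 held 1 TATAAA, and Ccl9 held 3, of which a pair on opposite strands overlap. Ccl6 held none of these runs. These are matches of letters and no measure of binding, and Cxcl1, Cxcl2 and Cxcl3 carry the shared run while their values below differ.

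Among the ligands, Ccl2, Ccl7 and Ccl12, which attract monocytes, were higher in Thy1-positive cells. Their neighbour Ccl8 (MCP-2) was dim and did not pass. Ccl2 (MCP-1), which recruits monocytes through CCR2, measured 2.57, 3.02 and 2.61 on N1, N2 and N3 and 6.79, 7.62 and 8.05 on P1, P2 and P3. All 3 Thy1-positive arrays lay far above the Thy1-negative ones. The difference was 4.75 (SE 0.37, adjusted p = 0.00286), or 26.9-fold over Thy1-negative values near background. Ccl7 (MCP-3), another CCR2 ligand, measured 2.88, 2.87 and 2.88 on N1, N2 and N3 and 5.26, 5.75 and 6.004 on P1, P2 and P3. It differed by 2.79 (SE 0.20, adjusted p = 0.00248), or 6.94-fold, with no overlap. Ccl12 (MCP-5), the third of these neighbours, measured 2.46, 2.37 and 2.42 on N1, N2 and N3 and 4.58, 6.33 and 6.48 on P1, P2 and P3. P1 was low among the Thy1-positive arrays but stayed above every Thy1-negative one. The difference was 3.38 (SE 0.57, adjusted p = 0.0143), at least 8.72-fold, since Ccl12 was at low signal in Thy1-negative cells. Without N1, N3 or P3 it did not pass, with differences of 3.40, 3.39 and 3.04.

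The CCR1 ligands Ccl3, Ccl6 and Ccl9 were also higher. Ccl3 (MIP-1 alpha), a product of activated macrophages, measured 2.48, 2.46 and 2.48 on N1, N2 and N3 and 6.75, 6.65 and 7.84 on P1, P2 and P3. P3 stood highest, and the fractions did not overlap. The difference was 4.60 (SE 0.35, adjusted p = 0.0028), at least 21.2-fold from low signal. Ccl6, a chemokine of rodents, measured 3.54, 3.53 and 3.54 on N1, N2 and N3 and 5.68, 6.16 and 6.02 on P1, P2 and P3. It differed by 2.42 (SE 0.13, adjusted p = 0.00125), or 5.34-fold. Its other probe set, dimmer, differed by 0.14 and also passed over all probe sets. Ccl9, like Ccl6 made by myeloid cells of rodents, measured 3.10, 3.17 and 3.10 on N1, N2 and N3 and 5.36, 5.33 and 5.36 on P1, P2 and P3. This was the tightest of the larger differences, at 2.22 (SE 0.03, adjusted p = 3.55e-05), or 4.67-fold, while its other probe set differed by 0.61 and did not pass over all probe sets. The Thy1-negative values of Ccl6, Ccl7 and Ccl9 varied by an SD of 0.04 or less and lay below the array median, so these folds rest on values near background.

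The neighbours Ccl4 and Ccl5 did not pass. Ccl5 (RANTES), a product of T and cytotoxic lymphocytes, measured 2.41, 2.41 and 2.41 on N1, N2 and N3 and 2.81, 5.17 and 2.68 on P1, P2 and P3. P1 and P3 lay slightly above the Thy1-negative arrays and P2 far above them, and the difference was 1.14 (SE 0.75, adjusted p = 0.329), with a 95% interval of -0.83 to 3.12. Without P2, Ccl5 passed at a difference of 0.34. Ccl4 (MIP-1 beta) measured 2.25, 2.24 and 2.19 on N1, N2 and N3 and 2.25, 3.40 and 4.18 on P1, P2 and P3. P1 lay at the upper edge of the Thy1-negative arrays while P2 and P3 were higher, and the difference was 1.05 (SE 0.52, adjusted p = 0.202), with an interval of -0.32 to 2.42. Without P1 it passed at 1.56.

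Ccl25 and Ccl27a are chemokines of epithelia rather than of inflammation. Ccl25, the ligand of CCR9 that is known from thymus and gut, measured 4.37, 5.38 and 4.40 on N1, N2 and N3 and 6.99, 6.33 and 6.81 on P1, P2 and P3. N2 was the highest Thy1-negative array and remained below P2. It differed by 1.99 (SE 0.36, adjusted p = 0.0172), or 3.98-fold, and its other probe set by 0.75, which did not pass over all probe sets. Without N1, N3, P1 or P3 Ccl25 did not pass, with differences of 1.82, 1.83, 1.85 and 1.94. Ccl27a, a skin chemokine that acts on CCR10, measured 6.44, 6.32 and 6.14 on N1, N2 and N3 and 5.26, 5.37 and 5.44 on P1, P2 and P3. It differed by -0.94 (SE 0.09, adjusted p = 0.00483), or 1.92-fold lower, with no overlap. Its probe set carries the ending _x_at, by which Affymetrix marks probes shared with other transcripts, and the mouse genome holds near-identical copies of the gene, so the value is uncertain.

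The remaining CC ligands gave little signal. Ccl1, Ccl8, Ccl11, Ccl17, Ccl20, Ccl22, Ccl24 and Ccl28 were dim in both fractions and did not pass. Of these Ccl17, which attracts CCR4-positive T cells, varied among the Thy1-negative arrays at 4.50, 2.24 and 3.60 and lay at 2.28 to 2.29 on the Thy1-positive ones. Without N2 it passed as lower at -1.76. Ccl1 measured 2.40 to 2.76 against 2.79 to 3.38. Of the 18 CC ligands, 7 thus passed as higher (38.9%, against 18.5% of all genes) and 1 as lower (5.56%, against 14.4%), with a median difference of 0.78.

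Among the CXC ligands, Cxcl2 (MIP-2), a neutrophil attractant, stood out with 2.64, 2.61 and 2.62 on N1, N2 and N3 and 5.87, 6.64 and 6.92 on P1, P2 and P3. The difference was 3.85 (SE 0.29, adjusted p = 0.00272), at least 14.0-fold from low signal. Its direct neighbour Cxcl1 (KC), which acts on the same receptor, showed no such pattern, at 6.86, 6.78 and 8.49 on N1, N2 and N3 and 4.996, 7.23 and 6.67 on P1, P2 and P3. N3 was the highest and P1 the lowest, and N1 and N2 fell between P1 and P2. The difference was -1.08 (SE 0.81, adjusted p = 0.397), with an interval of -3.20 to 1.05, and the remaining Cxcl1 probe sets gave -1.44 and -0.06. Cxcl3, the third of them, measured 3.30, 3.25 and 3.31 on N1, N2 and N3 and 3.36, 3.36 and 3.36 on P1, P2 and P3. It was dim and differed by 0.07 (SE 0.02, adjusted p = 0.0461), a small difference that passed beside an SD of 0.03 in Thy1-negative cells. P1, P2 and P3 held the same intensity of 9.25, so their SD was 0, and the call of Cxcl3 rests on values near background. It passed without N2, but not without any of the other arrays.

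Cxcl16, a ligand that is made as a membrane protein and acts on CXCR6, measured 4.67, 4.47 and 4.51 on N1, N2 and N3 and 5.30, 6.24 and 5.79 on P1, P2 and P3. The fractions did not overlap, and the difference was 1.23 (SE 0.26, adjusted p = 0.0254), or 2.34-fold. Its other probe set differed by 2.00 and also passed. Without N1, N2, N3 or P3 Cxcl16 did not pass, with differences of 1.28, 1.19, 1.21 and 1.22.

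Cxcl12 (SDF-1), known in testis as a product of Sertoli and other somatic cells, was the brightest member by probe set signal, at 9.89, 8.67 and 9.87 on N1, N2 and N3 and 9.07, 10.57 and 9.92 on P1, P2 and P3. N2 and P1 were low in their fractions and the fractions overlapped. The difference was 0.38 (SE 0.55, adjusted p = 0.689), with an interval of -1.07 to 1.83. The dimmer probe sets of Cxcl12, at 0.65 and 0.32, did not pass either. Cxcl10, an interferon-induced ligand of CXCR3, measured 4.24, 3.89 and 4.67 on N1, N2 and N3 and 4.24, 4.24 and 4.26 on P1, P2 and P3. It differed by -0.02 (SE 0.21, adjusted p = 0.964), with an interval of -0.56 to 0.53. Cxcl5, Cxcl9, Cxcl11, Cxcl13, Cxcl14, Cxcl15 and Cxcl17 were dim in both fractions and did not pass, although the other probe set of Cxcl9 passed at a difference of 0.22, also at low values. Of the 13 CXC ligands, 3 passed as higher (23.1%, near the 18.5% of all genes), Cxcl3 with its small difference among them.

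Cx3cl1 (fractalkine), the only CX3C ligand, is made as a membrane protein and acts through the chemokine receptor CX3CR1. It measured 8.35, 7.72 and 8.12 on N1, N2 and N3 and 5.84, 6.74 and 5.95 on P1, P2 and P3. The Thy1-negative arrays were all higher than the Thy1-positive ones, with P2 nearest to them. The difference was -1.88 (SE 0.31, adjusted p = 0.014), or 3.69-fold lower. Its dimmer probe sets differed by -0.55, -0.06 and 0.00, and none passed. Without N1, N3 or P3 it did not pass, with differences of -1.74, -1.86 and -1.77.

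**Figure D2:**
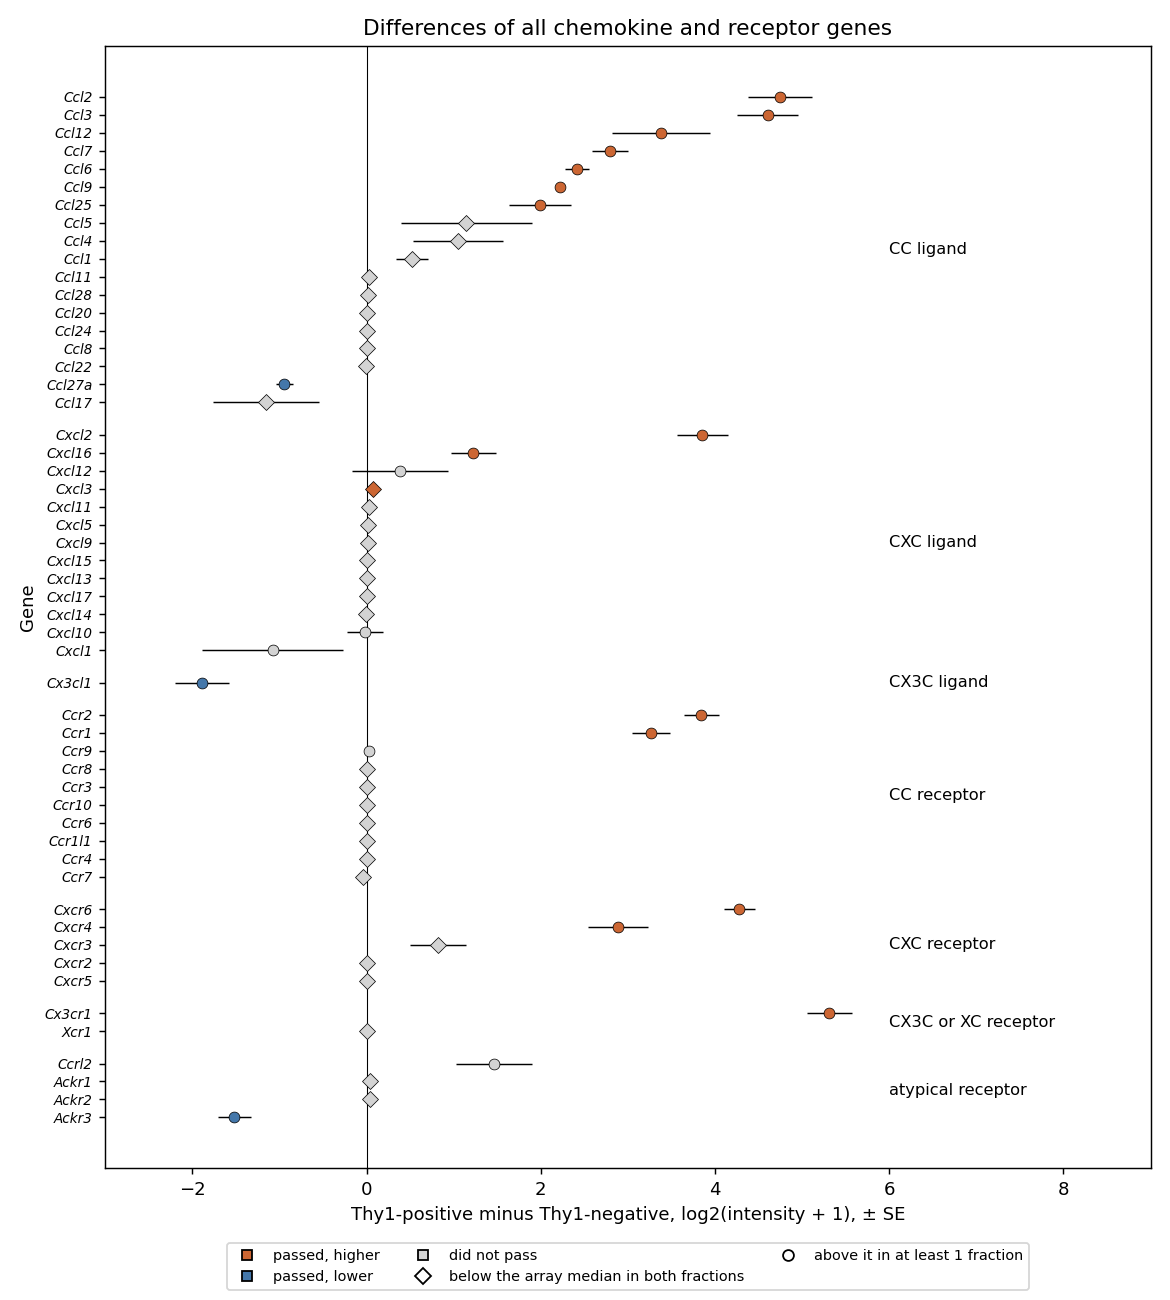
Differences of all 53 members, Thy1-positive minus Thy1-negative in log2(intensity + 1), with SE, by class of ligand and receptor. Filled orange marks passed as higher and blue as lower, grey marks did not pass, and diamonds are dim in both fractions. Most grey diamonds lie close to 0.

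Of the 21 receptors, 5 passed as higher (23.8%, against 18.5% of all genes) and 1 as lower (4.76%, against 14.4%). Cx3cr1, the fractalkine receptor of resident macrophages, measured 3.01, 2.996 and 2.997 on N1, N2 and N3 and 8.48, 7.77 and 8.69 on P1, P2 and P3. The Thy1-negative arrays were flat near background and all Thy1-positive arrays were bright. The difference was 5.31 (SE 0.26, adjusted p = 0.000885), or 39.7-fold over values near background. Its other probe set differed by 4.03 and passed.

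Ccr2, the receptor of inflammatory monocytes for CCL2, CCL7 and CCL12, measured 2.93, 2.78 and 2.81 on N1, N2 and N3 and 6.76, 7.005 and 6.28 on P1, P2 and P3. It differed by 3.84 (SE 0.20, adjusted p = 0.0011), or 14.4-fold. A further probe set differed by 3.23 and passed, while 2 dimmer ones, at 0.35 and 0.02, did not. Ccr1, a receptor of monocytes and neutrophils for CCL3, CCL6 and CCL9, measured 2.93, 2.92 and 2.92 on N1, N2 and N3 and 6.47, 5.73 and 6.37 on P1, P2 and P3. It differed by 3.27 (SE 0.22, adjusted p = 0.002), or 9.64-fold, while its other probe set differed by 0.09 and did not pass. For both receptors the fractions did not overlap, and the folds are over Thy1-negative values near background.

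Cxcr6, the CXCL16 receptor of T and natural killer cells, measured 2.28, 2.27 and 2.28 on N1, N2 and N3 and 6.39, 6.95 and 6.34 on P1, P2 and P3. It differed by 4.28 (SE 0.18, adjusted p = 0.00061), at least 14.8-fold from low signal, and its other probe set by 2.15, which passed. Cxcr3, a receptor of activated T cells, measured 2.74, 2.62 and 2.74 on N1, N2 and N3 and 3.88, 2.83 and 3.86 on P1, P2 and P3. P1 and P3 were higher and P2 lay close to the Thy1-negative arrays. The difference was 0.82 (SE 0.33, adjusted p = 0.126), with an interval of -0.03 to 1.68, and without P2 it passed at 1.17.

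Cxcr4, the receptor for CXCL12 that is found on germ cells, leukocytes and endothelium, measured 4.28, 4.31 and 4.17 on N1, N2 and N3 and 7.40, 6.42 and 7.60 on P1, P2 and P3. The Thy1-negative values lay close to the array median, and P2 was the lowest of the Thy1-positive arrays. The difference was 2.89 (SE 0.34, adjusted p = 0.00659), or 7.40-fold. Ackr3 (CXCR7), the atypical receptor that takes up CXCL12, ran the other way, at 8.52, 8.90 and 8.73 on N1, N2 and N3 and 6.94, 7.52 and 7.14 on P1, P2 and P3. The fractions did not overlap, and the difference was -1.52 (SE 0.19, adjusted p = 0.00745), or 2.86-fold lower. It passed in each fit that left out 1 array.

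Receptors with little signal made up the rest. Cxcr2, the receptor of neutrophils for CXCL1 and CXCL2, measured 2.68, 2.67 and 2.68 on N1, N2 and N3 and 2.68, 2.67 and 2.69 on P1, P2 and P3. It lay near the 25th percentile in both fractions and did not pass (adjusted p = 0.828). Ccr3, Ccr4, Ccr6, Ccr7, Ccr8, Ccr10, Ccr1l1, Cxcr5, Xcr1, Ackr1 and Ackr2 were likewise dim in both fractions and did not pass. Ccr9, the CCL25 receptor, measured 4.09 to 4.15 on all arrays and did not pass, although another of its probe sets, which ends in _x_at, was higher at a difference of 1.47. Ccrl2, a receptor that binds chemerin, measured 3.08, 2.86 and 3.08 on N1, N2 and N3 and 4.38, 3.71 and 5.31 on P1, P2 and P3. Its fractions did not overlap, but the difference of 1.46 (SE 0.44, adjusted p = 0.0631) did not pass, and without P2 it passed at 1.84.

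Set side by side by their known pairs, ligand and receptor did not follow 1 pattern. For CX3CR1 the receptor was higher and the ligand lower in Thy1-positive cells, by 5.31 and -1.88. For CXCL12 the ligand did not pass, its signalling receptor Cxcr4 differed by 2.89 and its atypical receptor Ackr3 by -1.52. For CXCR6 the receptor and its ligand Cxcl16 were higher, for CCR2 the receptor and Ccl2, Ccl7 and Ccl12, and for CCR1 the receptor and Ccl3, Ccl6 and Ccl9, while Ccl5, another ligand of CCR1, did not pass. For CXCR2 the receptor was dim, and of its ligands Cxcl2 was higher by 3.85 while Cxcl1 did not pass. The differences between these pairs were not tested.

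**Figure D3:**
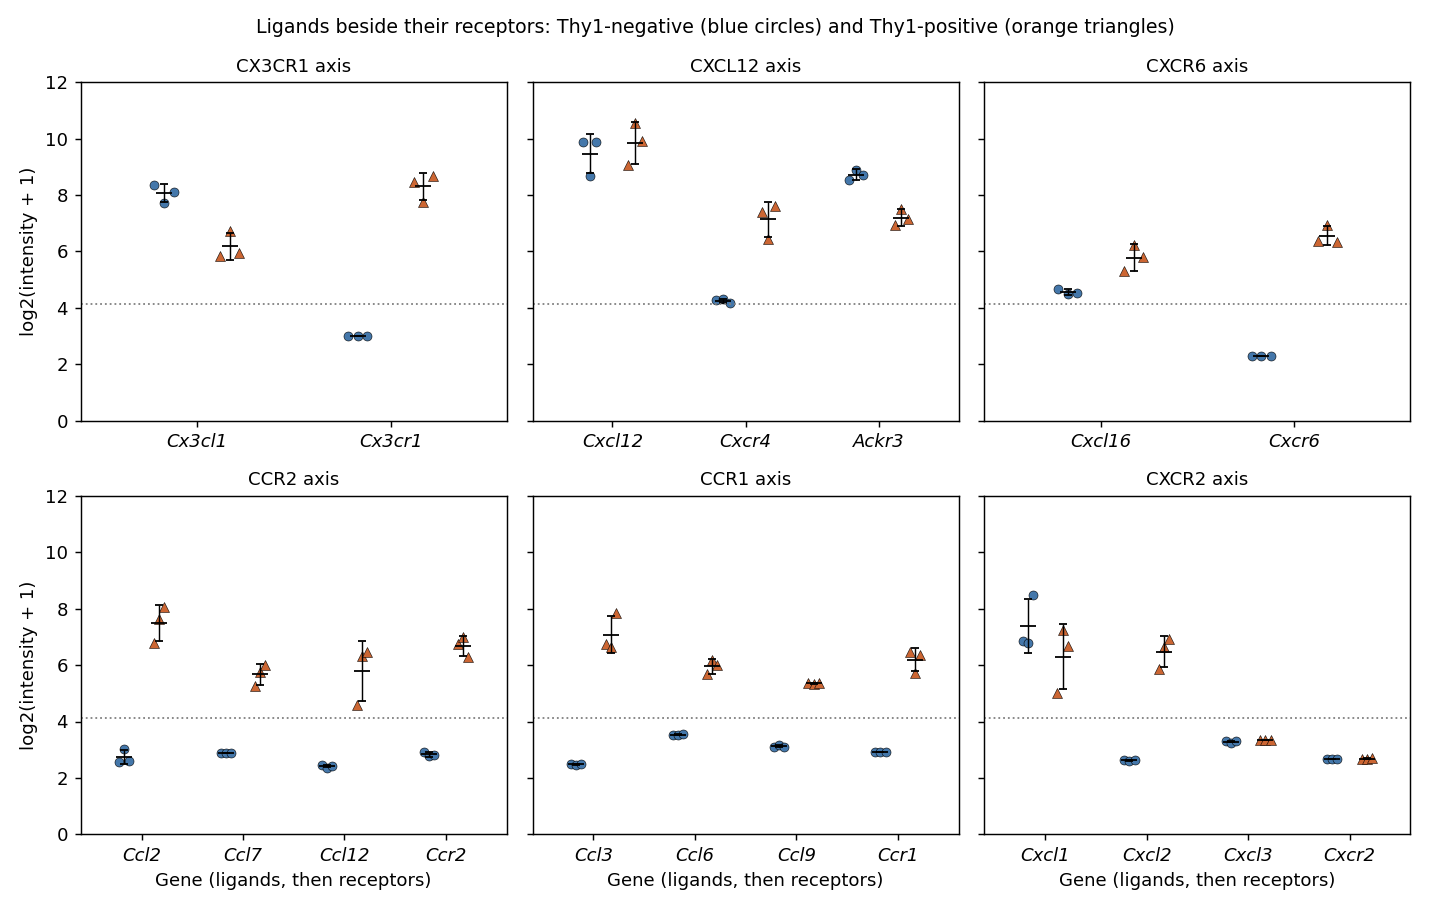
Values of ligands beside their receptors as log2(intensity + 1) on each array, Thy1-negative in blue circles and Thy1-positive in orange triangles, with mean and SD of 3 arrays and the median of all probe sets as a dotted line. The fractions part in opposite directions for Cx3cl1 and Cx3cr1 and for Ackr3 and Cxcr4.

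The Thy1-positive arrays did not rank alike for every member. Among the 12 members with a difference of 2 or more, P1 was lowest for 5 (Ccl2, Ccl12, Ccl7, Ccl6 and Cxcl2), all of them ligands. P2 was lowest for 5 (Ccl3, Ccl9, Ccr1, Cxcr4 and Cx3cr1), and P3 for 2 (Ccr2 and Cxcr6). Of the Thy1-positive arrays, P2 was highest for Ccl6, Ccr2 and Cxcr6 of these 12. Outside them it was highest for Ccl5, Cxcl16, Cxcl12, Cxcl1, Ackr3 and Cx3cl1, among others. S100a8 and S100a9, neutrophil genes, were highest on P1 at 11.40 and 11.37. Among the Thy1-negative arrays they were highest on N1, at 10.00 and 9.17. Camp and Ltf were likewise highest on N1 and P1 in their fractions, whereas Csf3r, Mpo and Elane did not rank so. Whether arrays of the same number share a preparation was not tested with these genes.

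In gene order (RefSeq GRCm38.p6), many members lie in groups with at most 5 other protein-coding genes between neighbours. On chromosome 11, Ccl2, Ccl7, Ccl11, Ccl12, Ccl8 and Ccl1 follow each other, and Ccl2, Ccl7 and Ccl12 passed as higher while Ccl11, Ccl8 and Ccl1 were dim. In the second group there, Ccl5, Ccl9, Ccl6, Ccl3 and Ccl4, the 3 in the middle passed as higher. On chromosome 9, Cxcr6, Ccr1 and Ccr2 passed as higher in a group of 7 in which Xcr1, Ccr1l1 and Ccr3 were dim and Ccr9 did not pass. Also on chromosome 9, Cx3cr1 stands next to Ccr8, which was at low signal in both fractions. On chromosome 8, Cx3cl1 stands between Ccl22 and Ccl17, of which neither passed. In all, 12 of the 15 higher members lie in such groups, as do 30 of the 52 members placed.

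**Figure D4:**
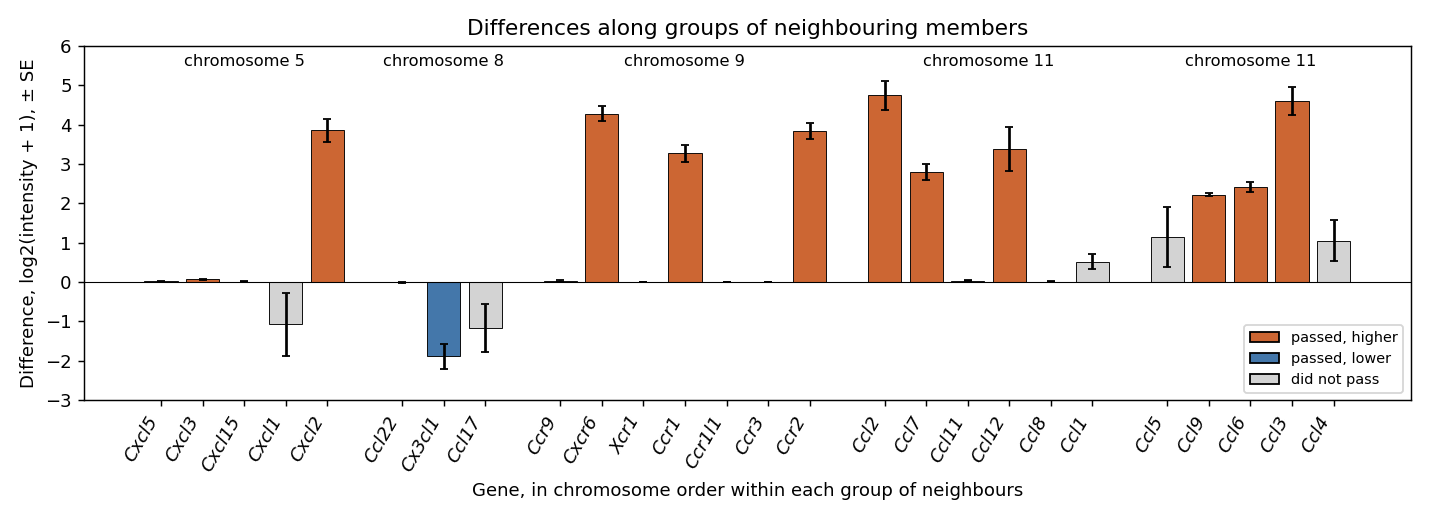
Differences (Thy1-positive minus Thy1-negative, log2(intensity + 1), with SE) of members in groups of 3 or more neighbours, in chromosome order. On chromosome 9 the bars of Cxcr6, Ccr1 and Ccr2 stand among neighbours near 0. In other groups Ccl4, Ccl5, Cxcl1 and Ccl17 did not pass but differed by 1.05, 1.14, -1.08 and -1.16.

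A further list held genes downstream of chemokine receptors or neighbouring them in the pathway. It includes genes outside intracellular signalling, such as Mif, Cd74, Rarres2, Dpp4, Cmklr1 and C5ar1. Of 42 genes listed, 39 were measured. Of these 15 were higher (38.5%) and 3 lower (7.69%), against 18.5% and 14.4% of all genes, with a median difference of 0.35. The largest increases were those of Rgs1, a brake on G protein signals in lymphocytes (6.32, SE 0.13, adjusted p = 8.18e-05), Cd74, a partner of MHC class II and a receptor for MIF (5.14, SE 0.23, at least 28.2-fold from low signal), Rac2, a GTPase of blood cells (3.57, SE 0.06), and Was, an actin regulator of blood cells (3.49, SE 0.40). The widely expressed Rac1 differed by 0.35 (SE 0.09, adjusted p = 0.0499). Those that were lower were Rgs2, another brake on G protein signals (-1.49, SE 0.13), Grk6, a kinase that silences receptors (-0.63, SE 0.12), and Gnai3, an inhibitory G protein subunit (-0.60, SE 0.09). Gnai2 did not pass (-0.48, SE 0.24). As with the receptors, the macrophage genes were higher on the same arrays, and their part was not tested.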

How the data were processed

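Total RNA of 6 samples was measured on 1-colour Affymetrix arrays. The table deposited by the authors holds linear intensities, 1 for each probe set of each array. The submitters' processing notes name GCRMA, while the sample descriptions in the labels speak of Affymetrix software with scaling, and which made the values is not settled. Of 45101 probe sets, 64 controls were left out. Symbols came from the platform annotation: 34945 probe sets had 1 gene, 932 several and 9160 none. All 53 members matched RefSeq by gene identifier with the same symbol.

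Values were taken as log2(intensity + 1), with a pseudocount of 1, no further normalization and no filter, and compared with limma 3.58.1 (lmFit and eBayes, R 4.3.3), 2-sided, with fraction as the single term. A fold against low signal raises values below the 25th percentile of their array to it. Intervals are limma's 95% intervals. On simulated data with 18193 genes, 200 of them changed, the test recovered 56.0% of changes of 1 and 88.0% of changes of 3 on the log2 scale. It made 15 false calls. Far more genes (5996) passed in the real data, which alters the adjusted cut-off, so these rates do not carry over to it. Per-array values were given for members that passed with a difference of 2 or more and no overlap, for 14 genes whatever their values (1 of them is not reported here), and for Ccl4, Ccl25, Ccl27a, Cxcl16, Cxcl3 and Ccrl2, which were added after their values were seen, as were Ccl1, Ccl17, Ccr9, Rac1 and Gnai2. The members and lists were chosen with earlier results of these data known. Leydig, peritubular myoid and interstitial genes were lower in 2 of 4, 4 of 6 and 1 of 8 measured. No block was used in the main fit, since arrays of the same number are not stated to be of 1 preparation. Their deviations from the fraction means correlated at r = -0.16, -0.17 and -0.04 over all genes. Arrays of unlike number gave -0.11 to 0.19, so these values cannot decide whether the arrays were paired.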

Additional observations from a re-analysis of the deposited data

How the results depend on the processing

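The 10 members Ccl2, Ccl3, Ccl6, Ccl7, Ccl9, Ccr1, Ccr2, Cx3cr1, Cxcl2 and Cxcr6 passed as higher under all 19 alternatives, including quantile normalization, centring, a pseudocount of 16 and leaving out any array. All 10 differences were smaller with a pseudocount of 16, so their sizes and folds depend on the pseudocount. Of the alternatives, only the replicate number as a block ended the calls of Cxcr4 and Ccl27a, whereas Ackr3 passed in all 18 that could be run on its probe set. Leaving out 1 array at a time left 11 to 17 members higher and 2 to 4 lower, 10 to 17 signalling genes higher and 1 to 5 lower, and 2513 to 7281 genes in all. With arrays centred on their median, 43 members passed as higher beside 3 lower, and 13095 genes in all. The median of all genes then moved from 0.01 to 0.13 (to -0.13 with housekeeping centring, where Cxcl3 was the only one of the 15 higher members lost), and 26 of the 28 members gained are dim in both fractions. With the replicate block, 10 members were higher (without Ccl12, Ccl25, Cxcl16, Cxcl3 and Cxcr4), 1 lower (Ackr3), 7 signalling genes higher and 0 lower (limma), and 1479 genes were called in all. With array weights, whose estimation stopped before it converged, 25 members were higher and 6 lower, 10 signalling genes were lower and 12268 genes were called. Without probe sets ending in _x_at, _s_at or _a_at, 1 member was lower, as Ackr3 and Ccl27a have no other probe set. Without both arrays numbered 2, chosen after seeing the data, 6 signalling genes were lower.

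Ccl12, Ccl25, Cxcl16, Cx3cl1 and Cxcl3 also lost their calls when single arrays were left out, Cxcl3 further with a floor at the 25th percentile and with an intensity trend, and Ccl12 and Cxcl16 without both arrays numbered 2. Cxcl1 and Cxcl10 passed with array weights.

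Among the 24 genes followed singly, signs turned only for Cxcl10, Cxcl12, Cxcl3 and Cxcr2. Cxcl10 differed by 0.095 with quantile normalization and 0.11 with median centring, and by -0.20 to 0.18 with 1 array left out (0.18 without N3). Cxcl12 differed by -0.0076 with array weights, -0.38 without both arrays numbered 2, and -0.025 (without N2) to 0.77 with 1 array left out. With housekeeping centring Cxcl3 differed by -0.068 and Cxcr2 by -0.13, and Cxcr2 by -1e-04 (without P3) to 0.0090 with 1 array left out. The causes were not tested. Signal near background limits the 30 dim members that did not pass.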

Other observations

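Some relatives of the chemokines fall outside the group and were chosen after their values were seen. Xcl1, a chemokine of natural killer and T cells whose receptor Xcr1 was dim, measured 3.06, 3.02 and 2.96 on N1, N2 and N3 and 6.61, 7.49 and 6.60 on P1, P2 and P3, a difference of 3.88 (SE 0.27, limma adjusted p = 0.00235). Ppbp, a platelet chemokine, measured 2.45 to 2.46 on all arrays. Of 10 measured genes of the chemokine-like Cklf and Cmtm family, 2 were lower. They were Cmtm3 (-1.31, SE 0.355) and Cmtm4 (-0.64, SE 0.13). Ackr4, an atypical receptor for CCR7 and CCR9 ligands, differed by 0.54 (SE 0.19) and did not pass (limma adjusted p = 0.0987).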
